A study of Mus musculus with 8 samples.

Results

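Crypt stem cell and Wnt target genes were followed in the small intestine of mice given a glucocorticoid, a gamma-secretase inhibitor, or both. The set comprised 9 genes chosen by name: Lgr5, Ascl2, Smoc2, Axin2, Rnf43, Sox9, Cd44, Ephb2 and Ephb3. Every probe set annotated to them was taken, which gave 14 of the 22690 probe sets on the array, for 8 of the 9 genes. No probe set is named Ephb2 in the annotation used here, so that gene was not analysed here. A filter on low signals (a mean scaled signal of at least 38.82 over the arrays) left 9 of the 14 probe sets, for 7 genes, to be tested among 13638. Ascl2 lay below the filter, with 3 probe sets. The second probe sets of Axin2 and Cd44 lay below it too.

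The samples were whole small intestine, snap frozen, from female C57/Black6 mice aged 6 weeks, injected daily into the peritoneum for 5 days. The vehicle group received DMSO. The second group received dexamethasone, a synthetic glucocorticoid, at 15 mg per kg, the third received DBZ at 10 umol per kg, and the fourth received both. DBZ inhibits gamma-secretase, the protease that releases the active part of the Notch receptors. The study's title places it in work on gamma-secretase inhibitors and glucocorticoid resistance in T cell leukaemia, where intestinal toxicity of the inhibitor is a known concern. Which segment of the intestine was sampled is not stated in the labels. Each group had 2 arrays, but the 2 DBZ columns held the same values in all but 6 probe sets and were counted as 1 array, which leaves 7 distinct arrays. No spread within the DBZ group could therefore be measured, and the p-values rest on the spread within the other 3 groups, which may be partly technical.

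Stem cells at the base of the intestinal crypt are kept dividing by Wnt ligands, which stabilise beta-catenin and let it activate target genes together with TCF factors. Lgr5 is the R-spondin receptor by which these stem cells are best known, and Ascl2 is a transcription factor that holds their program. Notch signalling acts in the same crypts, where it keeps progenitors from becoming secretory cells. Because tissue was measured in bulk, fewer crypt cells and less RNA per cell cannot be told apart.

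Values are MAS5 signals, scaled here so that each array has a trimmed mean of 250. Log2 differences are on the scale log2(signal + 12.32), which understates the change of dim probe sets, and are given ± their standard error. A probe set was called at a Benjamini-Hochberg adjusted p under 0.05 in limma's moderated test, adjusted over all 13638 tested probe sets. As deposited, the trimmed mean was 500.2 in both vehicle arrays and 250.1 in the others. Without the scaling, the median of all tested probe sets would lie at -0.92, -1.0 and -0.99 for dexamethasone, DBZ and the combination against vehicle.

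The arrays also differed in tissue markers. The summed signal of markers of the proximal small intestine was 44722 to 49263 with vehicle and 21724 to 37946 over the treated arrays. The summed signal of distal markers was 9697 to 9761 with vehicle and 26476 to 50952 over the treated arrays. The treated arrays thus lay apart from the vehicle arrays in both lists, and the part of this in the differences from vehicle below was not tested. The DBZ array had the highest 3'/5' ratio, a measure of RNA integrity, at 1.796 for Gapdh against 0.905 to 1.222 in the others and 2.17 for beta-actin against 1.217 to 1.794. Its part in the values of that array was not tested.

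The promoters of Ascl2, Rnf43 and Cd44 are shown because the main probe sets of the first 2 genes were lower in every array with DBZ than in any without it, and because Cd44 was the 1 member whose window held the short TCF/LEF core CTTTG on either strand. The sequences are the 250 bases before the annotated start, 5′ to 3′ on the gene's strand, from RefSeq's table for GRCm38.p6. They lie at chr7:142969265-142969514 on the minus strand (Ascl2), chr11:87662837-87663086 on the plus strand (Rnf43) and chr2:102901666-102901915 on the minus strand (Cd44). Capitals mark the match.
Ascl2: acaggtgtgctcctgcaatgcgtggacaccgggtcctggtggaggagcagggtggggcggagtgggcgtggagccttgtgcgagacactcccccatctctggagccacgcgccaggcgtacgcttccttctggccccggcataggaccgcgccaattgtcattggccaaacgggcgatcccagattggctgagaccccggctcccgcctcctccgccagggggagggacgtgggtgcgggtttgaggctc
Rnf43: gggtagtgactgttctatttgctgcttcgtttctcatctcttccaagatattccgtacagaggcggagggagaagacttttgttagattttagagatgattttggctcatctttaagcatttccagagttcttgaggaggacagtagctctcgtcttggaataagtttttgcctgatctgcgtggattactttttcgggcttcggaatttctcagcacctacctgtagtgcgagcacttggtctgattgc
Cd44: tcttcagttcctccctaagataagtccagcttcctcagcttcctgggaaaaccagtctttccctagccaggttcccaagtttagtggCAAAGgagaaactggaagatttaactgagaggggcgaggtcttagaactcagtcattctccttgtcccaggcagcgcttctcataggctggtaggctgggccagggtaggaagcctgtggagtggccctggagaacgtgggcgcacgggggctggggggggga

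The table held 6 of the 9 members, with 7 windows, and the other members were not analysed here. CTTTG, searched on both strands, was found in 1 of the 7 windows, 163 bases before the start of Cd44, and in 48.6% of 32851 windows of the same length. The longer core CTTTGA, which contains CTTTG, was found in 0 of 7 and in 13.8% of all windows. GTGGGAA, the core bound by RBPJ, the DNA-binding partner of Notch, was found in 0 of 7 and in 5.42% of all windows. These counts describe these windows only.

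Lgr5 was low in each array with DBZ. Its signal was 119.7 and 78.6 with vehicle, 85.7 and 108 with dexamethasone, 53.8 for DBZ alone, and 54.2 and 52.7 with both agents. The 3 arrays with DBZ lay below all 4 arrays without it, while the dexamethasone arrays lay within the range of the vehicle arrays. The log2 difference from vehicle was -0.73 ± 0.34 with DBZ (adjusted p = 0.203), -0.74 ± 0.27 with both agents (adjusted p = 0.137) and -0.01 ± 0.27 with dexamethasone (adjusted p = 0.982, limma). None of the 3 differences was called, and the 95% interval of the last runs from -0.63 to 0.60. In the order of mean signals, vehicle and dexamethasone could not be separated beyond their spread, nor could DBZ and the combination.

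**Figure D1:**
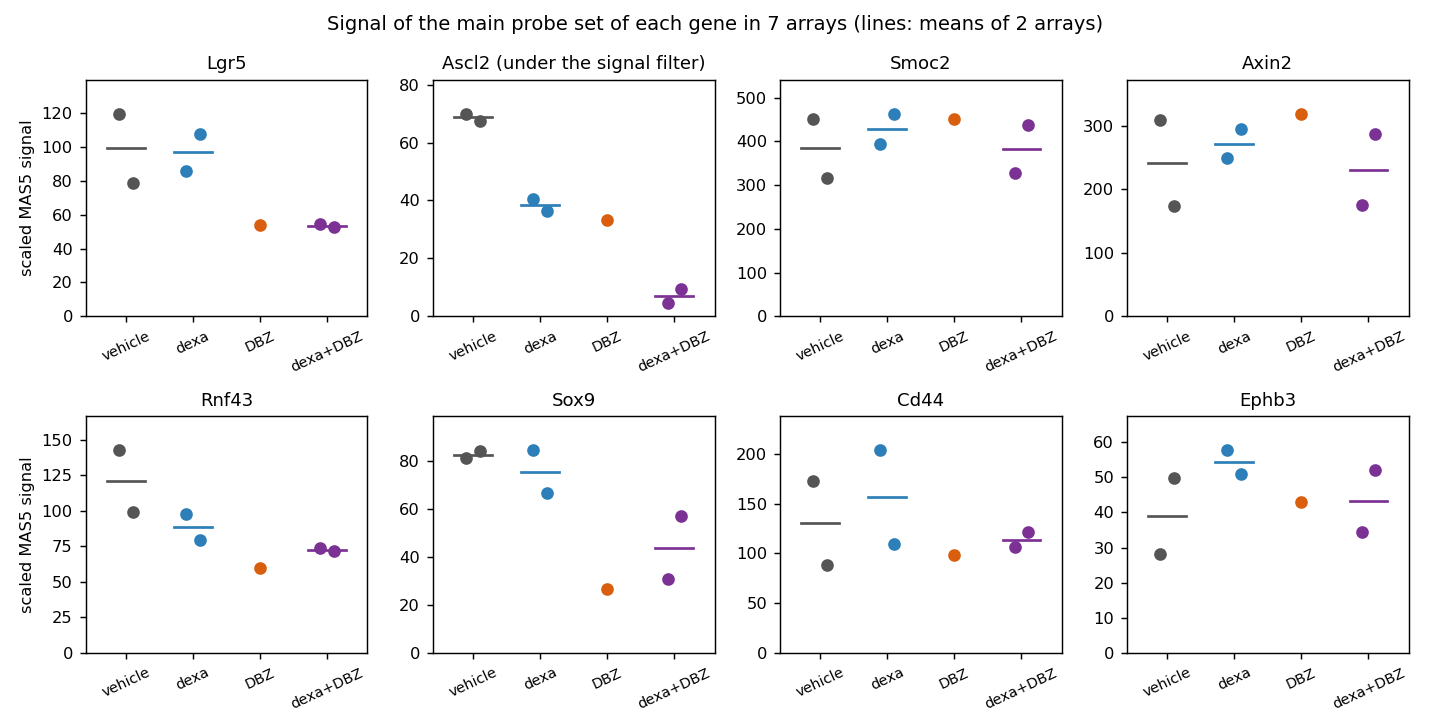
Scaled MAS5 signal (vertical axes, linear, from 0) of the main probe set of 8 genes in 7 arrays, by treatment group. Points are arrays and lines are means of 2 arrays, and Lgr5, Sox9, Rnf43 and Ascl2 are lower in every array with DBZ than in every array without it.

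Ascl2 was highest with vehicle and lowest with both agents. The signal of its brightest probe set, 1460514_s_at, was 70.0 and 67.3 with vehicle, 40.6 and 36.5 with dexamethasone, 33.1 for DBZ alone, and 4.68 and 9.46 with both. Both combination signals lay under 12.32, the constant added before the log, where signals are imprecise. The 4 groups, with DBZ as 1 array, did not overlap on this probe set, in the order vehicle, dexamethasone, DBZ, combination, a separation not counted over all probe sets. Since its mean signal fell under the filter, it was tested only in the fit without a filter, in which 2.75% of 22626 probe sets were called between the combination and vehicle. There it was called, at a log2 difference of -2.07 ± 0.33 (adjusted p = 0.0185). Neither leaving out single arrays nor the other alternative settings were run in that fit. Against vehicle the difference was -0.67 ± 0.33 with dexamethasone (adjusted p = 0.318) and -0.83 ± 0.40 with DBZ (adjusted p = 0.311), neither of which was called.

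The combination differed from dexamethasone alone by -1.40 ± 0.33 (adjusted p = 0.467) and from DBZ alone by -1.24 ± 0.40 (adjusted p = 0.383) on that Ascl2 probe set, and neither was called. The second Ascl2 probe set, 1432018_at, read 36.7 and 28.3 with vehicle, 22.4 and 20.9 with dexamethasone, 20.9 for DBZ alone, and 16.1 and 6.71 with both. It ran in the same order of group means, with the DBZ array level with the dexamethasone arrays, at a log2 difference of -0.94 ± 0.35 for the combination against vehicle (adjusted p = 0.209). The third, 1422396_s_at, was near background on each array, at 0.654 to 12.0. Signals this low are imprecise on these arrays.

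Smoc2, which encodes a secreted matrix protein and is a marker of the Lgr5-expressing cells, was the one gene with called differences among those that passed the filter, and its 2 probe sets disagreed. Probe set 1431362_a_at read 65.8 and 36.8 with vehicle, 105 and 159 with dexamethasone, 76.5 for DBZ alone, and 120.3 and 155 with both. Its 4 arrays with dexamethasone lay above the 3 without, as they did for 6.84% of all tested probe sets. Between these arrays the log2 difference was 0.97 ± 0.24 (adjusted p = 0.0627), and 0 of the 9 tested probe sets were called by limma in that added comparison, against 2.95% of all, with 1 at an unadjusted p under 0.05, against 19.1%. It rose by 1.20 ± 0.30 on the log2 scale with dexamethasone (adjusted p = 0.0332) and by 1.27 ± 0.30 with both agents (adjusted p = 0.0352). These were the only calls on the 9 tested probe sets: 1 of 9 with dexamethasone, where 12.0% of all tested probe sets were called, and 1 of 9 with both agents, where 7.44% were. With DBZ 0 of 9 were called by limma, where 8.34% were. At an unadjusted p under 0.05 stood 1, 2 and 4 of the 9 for dexamethasone, DBZ and both, against 26.9%, 26.4% and 24.2% of all tested probe sets. With DBZ alone the difference was 0.52 ± 0.37 (adjusted p = 0.410).

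The brighter Smoc2 probe set, 1415935_at, read 452 and 317 with vehicle, 394 and 464 with dexamethasone, 450.1 for DBZ alone, and 327 and 438 with both. Each treated group overlapped with vehicle, while the DBZ array lay above both combination arrays. Its log2 difference was 0.17 ± 0.22 with dexamethasone and -0.00 ± 0.22 with both agents, with 95% intervals of -0.33 to 0.67 and -0.50 to 0.50. Smoc2 is also made by stromal cells. The summed signal of 23 fibroblast and matrix genes was 5547 to 9329 with vehicle and 14032 to 18299 over the treated arrays, and its part in the Smoc2 result was not tested.

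The Smoc2 calls did not hold when some single arrays were left out. Each such fit has fewer residual degrees of freedom than the 3 of the full fit, which can itself end a call. The combination arrays enter the dexamethasone comparison only through the shared spread. With dexamethasone the call ended without vehicle replicate 2 (0.86), dexamethasone replicate 1 (1.47) or 2 (0.92), and combination replicate 1 or 2 (1.20 each). With both agents it ended without vehicle replicate 2 (0.93) and combination replicate 1 (1.43) or 2 (1.10). In the fit without a filter neither Smoc2 call stood, at an adjusted p of 0.0748 for dexamethasone, and there the 1 member called between the combination and vehicle was Ascl2.

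**Figure D2:**
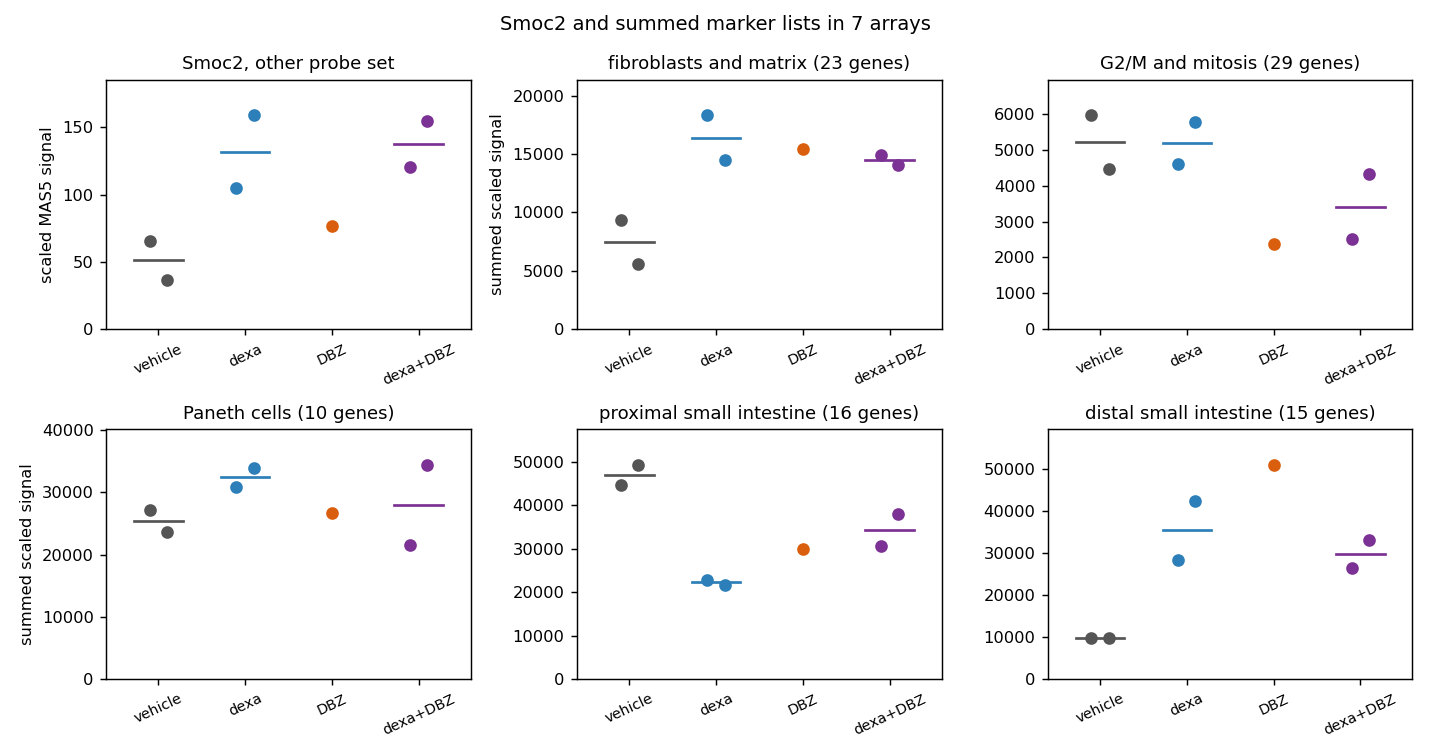
Scaled signal of Smoc2 probe set 1431362_a_at and summed scaled signals of 5 marker lists (vertical axes, linear, from 0) in 7 arrays, by treatment group. The fibroblast sum lies at 5547 to 9329 in the vehicle arrays and at 14032 to 18299 in the treated arrays, and the mitotic sum is lowest in the DBZ array.

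Of the genes of Wnt feedback, Axin2 and Rnf43 differed in pattern. Axin2 encodes a scaffold of the complex that degrades beta-catenin and is a general Wnt target. Its main probe set, 1436845_at, read 308 and 174 with vehicle, 249 and 294 with dexamethasone, 319 for DBZ alone, and 175 and 287 with both. The 2 vehicle arrays spanned nearly the whole range, and the log2 difference was 0.21 ± 0.30 with dexamethasone, 0.44 ± 0.36 with DBZ and -0.05 ± 0.30 with both agents, with none called. The dimmer Axin2 probe set, under the filter, ranged from 2.04 to 44.5 with overlapping vehicle, dexamethasone and combination arrays.

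Rnf43 encodes a membrane ubiquitin ligase that removes Wnt receptors from the cell surface. Its signal was 143 and 99.3 with vehicle, 97.7 and 79.3 with dexamethasone, 60.1 for DBZ alone, and 73.5 and 71.4 with both. Each treated array lay below both vehicle arrays, and each array with DBZ lay below both dexamethasone arrays. The log2 difference from vehicle was -0.39 ± 0.26 with dexamethasone (adjusted p = 0.380), -0.86 ± 0.32 with DBZ (adjusted p = 0.122) and -0.63 ± 0.26 with both (adjusted p = 0.169), with none called.

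Sox9, a transcription factor of crypt progenitors and Paneth cells, had the largest difference from vehicle among the tested members with DBZ. Its main probe set, 1451538_at, read 81.2 and 84.0 with vehicle, 84.5 and 66.7 with dexamethasone, 26.6 for DBZ alone, and 30.8 and 57.1 with both. The 3 arrays with DBZ lay below the 4 without it. The log2 difference from vehicle was -1.28 ± 0.38 with DBZ (adjusted p = 0.0657), -0.79 ± 0.31 with both agents (adjusted p = 0.152) and -0.12 ± 0.31 with dexamethasone (adjusted p = 0.850). None was called, and DBZ against dexamethasone, at -1.17 ± 0.38, was not called either (adjusted p = 0.205).

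The other Sox9 probe set, 1424950_at, read 39.8 and 56.5 with vehicle, 75.0 and 57.0 with dexamethasone, 32.1 for DBZ alone, and 17.9 and 49.5 with both. Here 1 combination array lay within the vehicle range. Its difference from vehicle was -0.43 ± 0.47 with DBZ and -0.47 ± 0.39 with both agents, and neither was called. The summed signal of 10 Paneth cell genes, cells in which Sox9 is also made, was 26662 in the DBZ array, between the vehicle arrays' 23689 and 27118. Of 8 tested Paneth cell genes, 5 were lower and 3 higher in that array than with vehicle, at a median log2 difference of -0.48 (range -1.33 to 3.26). By limma 1 rose and 0 fell, where 8.34% of all tested probe sets were called. At an unadjusted p under 0.05 stood 3 of the 8, against 26.4% of all.

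The genes of the crypt's surface proteins had no called difference. Cd44 encodes a hyaluronan receptor of crypt cells and of leukocytes. Its main probe set, 1423760_at, read 173 and 88.4 with vehicle, 204 and 109 with dexamethasone, 98.6 for DBZ alone, and 107 and 121 with both. Each treated group overlapped with vehicle, while the DBZ array lay below the dexamethasone and the combination arrays. The log2 difference from vehicle was 0.25 ± 0.34 with dexamethasone, -0.30 ± 0.42 with DBZ and -0.12 ± 0.34 with both agents. The second Cd44 probe set, under the filter, ranged from 2.91 to 65.7. The summed signal of the leukocyte list was 2981 to 3081 with vehicle, 2655 for DBZ alone, and 1559 to 1901 in the arrays with dexamethasone. With DBZ against vehicle 8 of 12 tested leukocyte genes were higher and 4 lower, at a median of 0.37. The part of leukocytes in the Cd44 values was not tested.

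Ephb3 encodes a receptor tyrosine kinase that, with Ephb2, sorts cells along the crypt axis. It was dim, at 28.3 and 49.8 with vehicle, 57.7 and 51.1 with dexamethasone, 43.1 for DBZ alone, and 34.5 and 52.0 with both. Both dexamethasone arrays lay above the vehicle arrays, at a log2 difference of 0.41 ± 0.33 that was not called (adjusted p = 0.487). The DBZ array lay below both dexamethasone arrays and within the range of the vehicle and combination arrays. The 95% interval of its difference from vehicle with DBZ ran from -0.77 to 1.06.

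**Figure D3:**
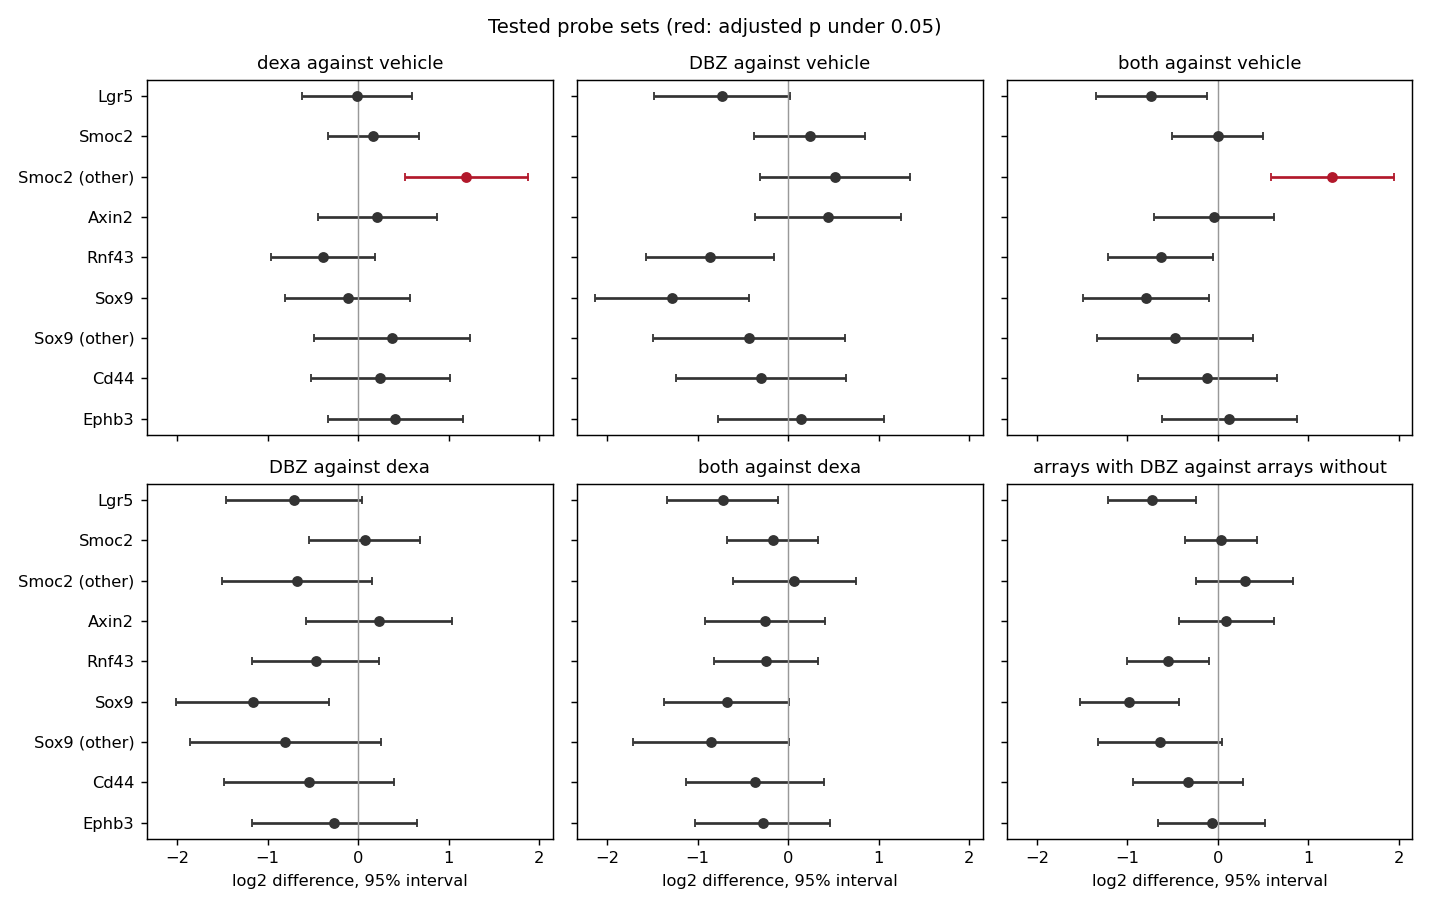
Log2 difference (horizontal axes) with its 95% interval for the 9 tested probe sets in 6 comparisons, with called differences in red. Smoc2 probe set 1431362_a_at is the one called, with dexamethasone and with both agents, and Lgr5, Sox9 and Rnf43 lie below 0 in arrays with DBZ.

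To compare the arrays with DBZ with those without, the average of the DBZ and combination groups was set against the average of the vehicle and dexamethasone groups. This comparison was added after the values had been seen. Lgr5 was lower by -0.72 ± 0.22 (95% interval -1.21 to -0.24, adjusted p = 0.110), Sox9 by -0.98 ± 0.24 (-1.53 to -0.43, adjusted p = 0.0742) and Rnf43 by -0.55 ± 0.20 (-1.01 to -0.10, adjusted p = 0.168). None of the 9 tested probe sets was called by limma, against 1.55% of all tested probe sets, and 3 of the 9 had an unadjusted p under 0.05, against 20.6% of all.

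The ranges of the arrays with and without DBZ did not overlap for 3 of the 9 tested probe sets, the main ones of Lgr5, Sox9 and Rnf43. Over all tested probe sets, 6.76% were lower without overlap. Ascl2, in the fit without a filter, gave -1.12 ± 0.26 (adjusted p = 0.132), and its main probe set did not overlap either. Axin2, at 0.09 ± 0.23, Cd44, at -0.33 ± 0.27, Ephb3, at -0.07 ± 0.26, and the brighter Smoc2 probe set, at 0.04 ± 0.18, overlapped. The dimmer Smoc2 probe set, at 0.30 ± 0.24, and the second Sox9 probe set, at -0.64 ± 0.31, overlapped as well.

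Genes of cell division were read in the same arrays. The summed signal of 29 genes of G2 and mitosis was 4453 to 5957 in the 4 arrays without DBZ, 2376 with DBZ alone, and 2524 and 4315 with both agents. Of 25 tested, 9 fell and 0 rose with DBZ against vehicle, where 8.34% of all tested probe sets were called, and the median was -1.15 against -0.02 over all tested genes. With both agents against vehicle 0 of the 25 were called by limma, where 7.44% of all tested probe sets were. At an unadjusted p under 0.05 stood 12 of the 25, against 24.2% of all, and the median was -0.71 against -0.05. One combination array, at 4315, lay near the lowest vehicle array, at 4453. Their part in the Lgr5, Sox9, Rnf43 and Ascl2 values was not tested.

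Adding dexamethasone to DBZ gave 0 calls among the 9 tested probe sets in limma, against 0.33% over all, with 0 at an unadjusted p under 0.05, against 12.3%. Adding DBZ to dexamethasone gave 0 calls, against 0.0293%, with 1 at an unadjusted p under 0.05, against 9.36%. Of the 9 probe sets 8 were lower and 1 higher, and the main ones of the 7 genes were all lower. The median of these 7 was -0.28, against -0.07 over 8094 tested genes. The share of all genes that were lower was not counted. DBZ against dexamethasone gave 0 calls, against 0.337%, with 1 at an unadjusted p under 0.05, against 15.2%. The interaction of the agents gave 0 calls, against 4.0%, with 0 at an unadjusted p under 0.05, against 20.5%.

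Beyond the 9 genes, other parts of the pathway were taken as lists that name ligands, receptors, transducers, inhibitors and further targets. Their counts stand beside 12.0%, 8.34% and 7.44% of all tested probe sets called against vehicle with dexamethasone, DBZ and both agents. Of 11 tested genes of the crypt stem cell signature, 2 rose and 1 fell with each treatment against vehicle, at medians of 0.27, -0.14 and 0.00 for dexamethasone, DBZ and both, against 0.02, -0.02 and -0.05 over all tested genes. Igfbp4, which encodes an IGF-binding protein, rose by 1.20 ± 0.16, 1.51 ± 0.20 and 0.90 ± 0.16. Fstl1, a secreted glycoprotein also made by stroma, rose by 1.66 ± 0.30, 1.60 ± 0.36 and 1.27 ± 0.30. Hopx, a homeodomain protein of a reserve stem cell state that is also made by differentiated cells, fell by 1.15 ± 0.22, 1.63 ± 0.27 and 1.68 ± 0.22. In the added comparison of arrays with DBZ against those without, 8 of the 11 were lower and 3 higher, at a median of -0.13 against -0.05. By limma 1 fell and 0 rose, against 1.55% of all tested probe sets. At an unadjusted p under 0.05 stood 7 of the 11, against 20.6% of all. The summed signal of the list's 17 genes with a probe set was 3234.5 to 4002 with DBZ and 4651 to 7720 without.

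The signature's calls for DBZ against vehicle on Igfbp4 and Hopx, and for both agents on Hopx, held under each alternative run. None of these left out the single DBZ array, on which the DBZ calls rest. The Hopx call with dexamethasone ended without dexamethasone replicate 1 (-1.04). The Igfbp4 call with both agents ended without vehicle replicate 2 (0.82) and combination replicate 1 (0.91) or 2 (0.89), and it reversed to -0.08 as deposited. The Fstl1 call ended without vehicle replicate 2 (1.29, 1.23 and 0.90 for the 3 treatments), and for dexamethasone also without dexamethasone replicate 1 (1.33). For DBZ it ended without combination replicate 1 or 2 (1.60 each), and for both agents without combination replicate 1 (1.09) or 2 (1.46).

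Of 15 other tested Wnt target genes, 3 rose and 1 fell with dexamethasone, and 1 rose and 1 fell with DBZ and with both agents, so that the counts with DBZ and with both were 2 of 15, near the shares of all tested probe sets (8.34% and 7.44%). The medians were 0.25, -0.24 and -0.23, against 0.02, -0.02 and -0.05 over all tested genes. Sp5, a transcription factor and direct Wnt target, read 256 and 364 with vehicle, 60.4 and 77.6 with dexamethasone, 114.5 for DBZ alone, and 111.4 and 89.0 with both. It fell by 1.97 ± 0.25, 1.33 ± 0.31 and 1.51 ± 0.25, and the dexamethasone call held under each alternative run. The DBZ call ended without vehicle replicate 2 (-1.08) and combination replicate 1 or 2 (-1.33 each), and the combination call without vehicle replicate 2 (-1.26) and combination replicate 1 (-1.65) or 2 (-1.36). Enc1, an actin-binding protein, rose by 1.67 ± 0.28 with DBZ and by 1.24 ± 0.23 with dexamethasone. The DBZ call held under each alternative run, none of which left out the DBZ array. The dexamethasone call ended without vehicle replicate 2 (1.05) and dexamethasone replicate 2 (0.995).

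Ccnd2, a cyclin of G1, rose by 1.21 ± 0.24 with dexamethasone and by 0.97 ± 0.24 with both agents. Mmp7, a protease of Paneth cells, rose by 1.44 ± 0.33 with dexamethasone. The Ccnd2 calls ended without vehicle replicate 2 (0.89 and 0.65), dexamethasone replicate 2 (1.05), and combination replicate 1 (1.17) or 2 (0.78), and the latter reversed to -0.02 as deposited. The Mmp7 call ended without vehicle replicate 2 (1.18) and dexamethasone replicate 2 (1.15).

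The upstream lists held few calls. Of 6 tested ligand genes, Wls, which carries Wnt proteins to the cell surface, rose by 1.08 ± 0.25 with dexamethasone, and the ligand Wnt7b fell by 1.98 ± 0.50 with DBZ. Of 9 tested receptor genes, 1 was called: Ryk, a Wnt co-receptor, rose by 0.90 ± 0.18 with dexamethasone. Of 17 genes of beta-catenin, its destruction complex and the TCF factors, 2 fell with dexamethasone, Dvl1 by 1.12 ± 0.20 and Gsk3a by 0.69 ± 0.19, and Dvl1 fell by 0.85 ± 0.20 with both agents. Dvl1 passes the Wnt signal to the complex, and Gsk3a encodes a kinase that marks beta-catenin for degradation. Of 5 tested inhibitor genes, Nkd2, which binds Dishevelled, rose by 1.87 ± 0.46 with DBZ and by 1.51 ± 0.38 with both agents. Of 6 tested Eph receptors and ephrins, 0 were called by limma against vehicle. At an unadjusted p under 0.05 stood 0, 1 and 1 for dexamethasone, DBZ and both, against 26.9%, 26.4% and 24.2% of all tested probe sets.

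The Dvl1 call with dexamethasone held under each alternative run. The other calls of these upstream lists ended when 1 array was left out: Wls without vehicle replicate 2 (0.91) or dexamethasone replicate 1 (0.85), and Wnt7b without vehicle replicate 1 (-1.53), dexamethasone replicate 2, or combination replicate 1 or 2 (-1.98 each). Ryk ended without vehicle replicate 2 (0.90) or dexamethasone replicate 1 (0.94) or 2 (0.85), and reversed to -0.06 as deposited. Gsk3a ended without any one of the arrays of vehicle, dexamethasone or the combination (-0.89 to -0.49). Dvl1 with both agents ended without vehicle replicate 2 (-0.69) and combination replicate 1 (-1.04) or 2 (-0.65). Nkd2 ended without vehicle replicate 2 (1.28 and 0.92) and combination replicate 1 or 2 with DBZ (1.87 each) and with both agents (1.68 and 1.35), and with both agents also without dexamethasone replicate 1 or 2 (1.51 each).

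Other settings ended some of these calls too. The signals as deposited shift the differences from vehicle down, to medians of -0.92, -1.0 and -0.99 over all tested probe sets for dexamethasone, DBZ and both. That setting weakens rises and enlarges falls, so a fall that held there was not put to a test by it. As deposited, the rises of Igfbp4 (0.23), Enc1 (0.31), Ccnd2 (0.22), Mmp7 (0.47) and Wls (0.18) with dexamethasone were not called, nor were those of Fstl1 (0.68 and 0.35) and Nkd2 (1.18 and 0.83) with DBZ and with both agents. Without the filter or without the intensity trend, Fstl1 and Nkd2 with DBZ and with both agents, Ccnd2 and Dvl1 with both agents, and Gsk3a with dexamethasone lost their calls in limma, at adjusted p from 0.0528 to 0.0916. Sp5 with DBZ, Wls and Wnt7b lost theirs without the filter (adjusted p = 0.0677, 0.0505 and 0.090 in limma), and Mmp7 with dexamethasone without the trend (adjusted p = 0.0523). With the replicate block, Ccnd2 and Nkd2 with both agents and Gsk3a with dexamethasone lost theirs (adjusted p = 0.0591, 0.0517 and 0.0673). Wnt7b also lost its call with quantile normalization (-1.94) and with the larger pseudocount (-1.18).

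**Figure D4:**
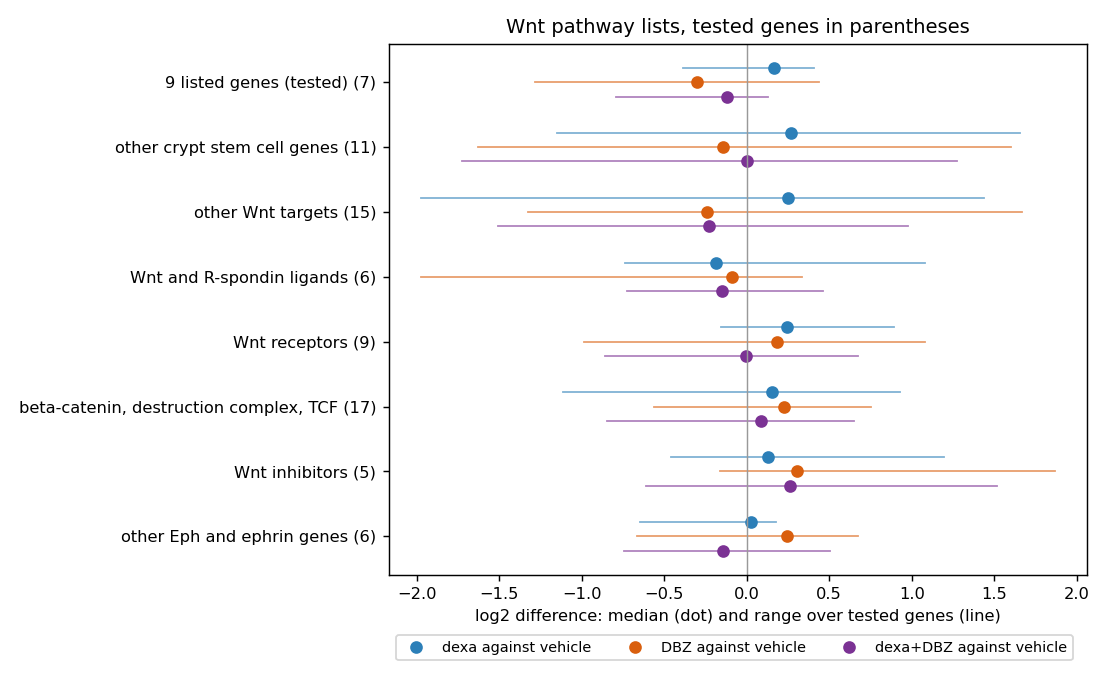
Median (dot) and range (line) of log2 differences against vehicle over the tested genes of 8 lists, with the number of tested genes in parentheses. The medians of the 8 lists lie between -0.30 and 0.31, while single genes such as Sp5 and Nkd2 lie farther out.

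Genes whose log2 signals ran most like those of the members over the 7 arrays were named by Pearson's r, as a description. The points share treatment groups. Each r was also picked as among the highest of 8094 tested genes over only 7 points. Both can make r high. The 3 nearest to Lgr5 were Mrrf (r = 0.981), Pabpc1 (0.979) and Nploc4 (0.979), and those nearest to Sox9 were Ndufa7 (0.995), Nup37 (0.988) and Pdk1 (0.983). Those nearest to Rnf43 were Isca2 (0.987), Dennd10 (0.984) and Snx5 (0.984). Adamts15 was nearest to both Smoc2 (0.984) and Axin2 (0.974), Fgfr1 to Cd44 (0.975) and Rbbp4 to Ephb3 (0.952).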

How the data were processed

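Biotin-labelled cRNA from Trizol total RNA was hybridised to 1-colour arrays, per the labels' protocols. The authors deposited linear MAS5 signal intensities, per the submitters' processing notes; the intensities had a trimmed mean of 500.2 in the vehicle columns and 250.1 in the others. Of 8 columns, the 2 labelled DBZ differed in 6 probe sets, where 1 copy was 0 and the higher value was used.

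Signals were multiplied so that all arrays shared a trimmed mean of 250 (2% trimmed at each end). The pseudocount in log2(signal + 12.32) is the 20th percentile of all signals. Tests covered the 13638 probe sets that were not among the 64 controls and whose mean signal reached 38.82, the 40th percentile. limma 3.58.1 in R 4.3.3 (lmFit and eBayes with an intensity trend, 2-sided) was fitted to the means of the 4 groups, with 3 residual degrees of freedom and a median of 6.83 prior ones, and tested on simulated data. Array number, 7, limits the precision.

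All probe sets of the members are described, the brightest standing for its gene. Up to 4 tested genes of smallest p were named per other list, and the nearest genes by Pearson's r. Members and lists were chosen with earlier results of these data known. The 2 comparisons of arrays with and without an agent were added after the values were seen. Alternatives were the signals as deposited, quantile normalization, a pseudocount at the 40th percentile, no filter, no trend, a replicate block and no vehicle arrays. In addition, 6 of the 7 arrays were left out in turn. The DBZ array was never left out, since it was the only one of its group. Probe sets with several gene symbols (691) or none (1606) gave no gene.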

Additional observations from a re-analysis of the deposited data

Results flagged for a closer look

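Rnf43 met a rule for effects that point opposite ways: its log2 difference with dexamethasone was -0.39 without DBZ, where both dexamethasone arrays lay below both vehicle arrays, and 0.23 with DBZ, where both combination arrays lay above the DBZ array. The difference between these effects was 0.62 ± 0.41 (limma, adjusted p = 0.440), so it did not pass the test. It rests on the 1 DBZ array.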

How the results depend on the processing

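Of the members' results, the Smoc2 calls on 1431362_a_at, with log2 values of 1.20 and 1.27, ended as deposited (0.35 and 0.42) and without a filter. The combination's also ended without the intensity trend (adjusted p = 0.0533) and with the replicate block (adjusted p = 0.0522). As deposited, where vehicle arrays are scaled higher, Smoc2 1415935_at turned to -0.81 with dexamethasone and -0.74 with DBZ, and Axin2 1436845_at to -0.75 with dexamethasone. Called members against vehicle then numbered 5, 6 and 7 of 9 for dexamethasone, DBZ and both, all lower. Of all 13638 tested probe sets, 10175, 9356 and 10839 were called there, nearly all lower as well. Members called numbered 2 for the interaction (6497 of all), 5 for arrays with DBZ (7592) and 1 for arrays with dexamethasone (5845). Without a filter 0 members were called with dexamethasone, and with both agents 0 without the trend and 0 with the block. Quantile normalization and the other pseudocount changed no call among the 9 tested probe sets. Ascl2, under the filter, was not fitted with either, so its call was not put to these settings. The log2 difference of replicate 2 from replicate 1 correlated over probe sets at 0.049 between vehicle and dexamethasone. It correlated at -0.122 between vehicle and the combination, and at 0.115 between dexamethasone and the combination. With 2 arrays per group these values cannot decide whether the numbers pair the samples. The cause of the lost calls was not tested.

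Called probe sets as deposited numbered 10175, 9356 and 10839 for dexamethasone, DBZ and both against vehicle, 10 for both against DBZ, 0 for both against dexamethasone, 8 for DBZ against dexamethasone, 6497 for the interaction, 7592 for arrays with DBZ and 5845 for arrays with dexamethasone. Without a filter they numbered, in that order, 1082, 538, 623, 5, 0, 1, 233, 57 and 173. Without the trend they numbered 678 for DBZ and 653 for both against vehicle, then 0, 0, 1, 206, 49 and 168. With the replicate block they numbered 1 for both against DBZ, 0 for both against dexamethasone, 1 for DBZ against dexamethasone and 138 for arrays with DBZ. With quantile normalization both against DBZ gave 6, both against dexamethasone 0 and DBZ against dexamethasone 14, and with the other pseudocount both against DBZ gave 10 and DBZ against dexamethasone 5. Without vehicle arrays both against DBZ gave 22 and both against dexamethasone 17. Leaving out 1 array gave 570 to 1332, 691 to 984 and 160 to 938 against vehicle, then 0 to 30, 0 to 104, 1 to 90, 92 to 567, 24 to 210 and 52 to 541, and 0 to 1 called members with dexamethasone, both agents, and arrays with dexamethasone. A lone remaining array was taken to vary like the other groups. Dim signals limit Ascl2 and Ephb3 most.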

Other observations

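Other cell types of the tissue were read from lists of their markers, as counts of tested genes against vehicle in the order dexamethasone, DBZ and both. Over all tested probe sets 12.0%, 8.34% and 7.44% were called in that order, so counts of 1 or 2 genes per list are not set apart from those shares. Of 13 goblet cell genes, 7, 2 and 2 rose and 0 fell. Of 8 Paneth cell genes, 3, 1 and 0 rose and 0 fell. Of 17 enterocyte genes, 5, 2 and 1 fell and 0 rose, and of 7 tuft cell genes, 0, 0 and 1 fell and 0 rose. Of 12 leukocyte genes, 2, 2 and 3 fell and 0 rose. Of 14 smooth muscle genes, 11, 7 and 6 rose and 0 fell, and of 23 fibroblast and matrix genes, 16, 10 and 9 rose and 0, 1 and 0 fell. Of 14 proximal intestinal genes, 1, 1 and 1 rose and 7, 7 and 6 fell, and of 14 distal ones, 10, 12 and 8 rose and 0 fell.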
